A study of Oryctolagus cuniculus with 6 samples.

Results

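The genes described here mark muscle stem cells and the steps by which they rebuild or maintain a muscle fibre: PAX7, MYF5, MYOD1, MYOG, MYF6, MEF2C, CDH15, MYH3, CHRNA1 and CHRNG. They were counted in facial nerve RNA of 6 rabbit libraries, and 9 of the 10 were found by symbol among the 17396 genes of the count files. CDH15, the M-cadherin of satellite cells, was not analysed here. The genes had been selected on this same contrast with its values known, so their levels are given as a description, and tests across all genes are given only as counts. The question put to them was whether muscle RNA in these samples carries the myosin and acetylcholine receptor subunits of regenerating or of denervated fibres.

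Satellite cells are the stem cells of skeletal muscle and lie between the fibre and its basal lamina. PAX7 is the transcription factor that marks them at rest and during activation. MYF5 and MYOD1 commit their daughters to the muscle lineage, MYOG drives terminal differentiation, and MYF6 is kept in mature fibres. MEF2C is a transcription factor that acts with these proteins, and it is also used by macrophages, endothelial cells and neurons. A newly formed fibre makes embryonic myosin heavy chain (MYH3) and the fetal acetylcholine receptor, whose gamma subunit (CHRNG) gives way to the epsilon subunit (CHRNE) once the fibre is innervated. The alpha subunit (CHRNA1) belongs to both receptors. When a fibre loses its nerve, the fetal subunit returns, and MYOG, a regulator of receptor subunit genes, is induced.

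The animals were wild-type male Japanese white rabbits of 3 to 4 months, and both groups had the facial nerve cut at its main trunk. The FNI group (facial nerve injury, 3 libraries) received no further treatment. In the FNI+I-125 group (3 libraries) an I-125 seed of 0.8 mCi was placed near the cut nerve, and all nerves were taken at day 14. The labels do not say that each library is a separate animal, so any spread given here is between these libraries, and no sham library was analysed.

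Each library held between 16031151 and 16798012 counts, and CPM (counts scaled to library size with TMM factors) is used as the level of a gene. The tissue was labelled as facial nerve, and the Schwann cell markers SOX10 and S100B were detected in all 6 libraries, with SOX10 between 832 and 4689 counts. Libraries differed in the other tissue they carried. The summed level of 33 adult fibre genes was 534, 388 and 543 CPM in FNI replicates 1, 2 and 3, against 8921, 7849 and 441 CPM in FNI+I-125 replicates 1, 2 and 3. FNI+I-125 replicate 3 thus held 4.94% of the summed level of FNI+I-125 replicate 1, and 35 counts of ACTA1 (skeletal alpha-actin) against 34204. In the libraries with a low sum, most of it came from TPM2 and TPM3. TPM2 stood at 258, 183 and 314 CPM in the FNI group and 244 CPM in FNI+I-125 replicate 3. TPM3 stood at 114, 128 and 126 CPM and at 145 CPM in the same libraries. The 4.94% is therefore not a share of fibre RNA alone. The summed level of 5 salivary gland genes reached 49685 CPM in FNI replicate 2 and lay between 23.4 and 2928 CPM elsewhere. The 12 Schwann cell genes summed to 38866 CPM in FNI replicate 3, and to between 872 and 7997 CPM in the other libraries. Because FNI+I-125 replicate 3 stood apart from its own group, the fitted log2 fold changes of the genes described here are given with and without it.

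**Figure D1:**
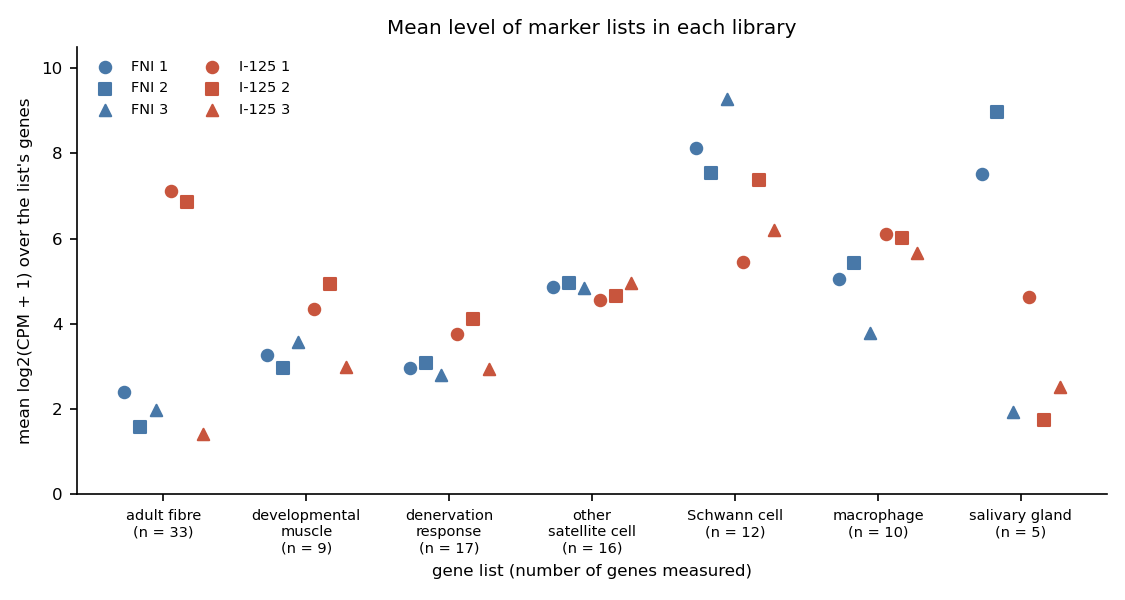
Mean log2(CPM + 1) over the genes of 7 marker lists (y axis) in each library (blue, FNI; red, FNI+I-125; symbols mark replicates). The adult fibre list reached 7.11 in FNI+I-125 replicate 1 and 6.86 in replicate 2, and lay between 1.41 and 2.39 in the other 4 libraries.

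PAX7 was low in every library and higher in all 3 FNI+I-125 libraries than in any FNI library. It had 1, 1 and 3 counts in FNI replicates 1, 2 and 3. FNI+I-125 replicates 1, 2 and 3 held 13, 13 and 11 counts of it. The mean level was 0.0996 ± 0.0673 CPM in the FNI group and 0.762 ± 0.105 CPM in the FNI+I-125 group (SD, n = 3). The pooled counts, 5 against 37, gave a ratio of 7.57 with a 95% interval of 2.97 to 24.7. Such intervals cover counting error only. The fitted log2 fold change was 2.84 (SE 0.63), and 2.94 (SE 0.77) without FNI+I-125 replicate 3. The SE given with each fitted change was derived from the test statistic, as described with the processing, and is approximate for genes with few counts. PAX7 passed the filter on low counts only through its FNI+I-125 libraries, and FNI+I-125 replicate 3, with 11 counts, held as little fibre RNA as the FNI libraries.

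Both commitment factors were counted in the FNI+I-125 libraries that carried fibre RNA. MYF5 was counted 4 times in replicate 1 of the FNI+I-125 group, 1 time in replicate 2 and 0 times in the other 4 libraries. Against the 3 counts over the group that a count of 0 allows, its FNI+I-125 level was 1.7-fold higher. This leaves out the counting error of its 5 FNI+I-125 counts, so it is not a lower limit. MYOD1 had 56 counts (3.66 CPM) in FNI+I-125 replicate 1 and 40 counts (2.43 CPM) in replicate 2, and it was at 0 in replicate 3 and in all FNI libraries. Against the same 3 counts, its pooled level was 32.7-fold higher in the FNI+I-125 group, and 50.3-fold higher without FNI+I-125 replicate 3. Counting error of its FNI+I-125 counts is again left out. The groups overlapped for both genes, since FNI+I-125 replicate 3 was at 0 with the FNI libraries.

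The differentiation factors MYOG and MYF6 followed the same libraries. MYOG had 2, 0 and 0 counts in the FNI group and 24, 54 and 0 counts in the FNI+I-125 group, or 0.117 CPM at the most against 1.57, 3.29 and 0 CPM. The ratio of its pooled counts was 39.9 (95% interval 10.7 to 335), and the log2 fold change, fitted without the filter, was 5.10 (SE 1.93). Without FNI+I-125 replicate 3 the fit gave 5.68 (SE 1.15). MYF6 had 1, 0 and 3 counts in the FNI group against 153, 83 and 2 counts in the FNI+I-125 group. Its pooled ratio was 60.8 (95% interval 23.5 to 225), and its log2 fold change was 5.85 (SE 1.68) with all libraries and 6.42 (SE 0.93) without FNI+I-125 replicate 3. For both genes FNI+I-125 replicate 3 lay inside the range of the FNI libraries, and the other 2 FNI+I-125 libraries lay above it.

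MEF2C was counted in every library, with or without fibre RNA. Its level was 56, 63.9 and 39 CPM in the FNI group and 82.3, 76.8 and 56.2 CPM in the FNI+I-125 group, with means of 53 ± 12.7 and 71.7 ± 13.8 CPM (SD, n = 3). The groups overlapped, since FNI+I-125 replicate 3 lay below FNI replicate 2. Its log2 fold change was 0.44 (SE 0.24), and 0.58 (SE 0.24) without that library. The summed level of 10 macrophage genes, cells that also use MEF2C, was 798, 1028 and 294 CPM in the FNI group and 1471, 1802 and 1169 CPM in the FNI+I-125 group, and its part in the MEF2C level was not tested.

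**Figure D2:**
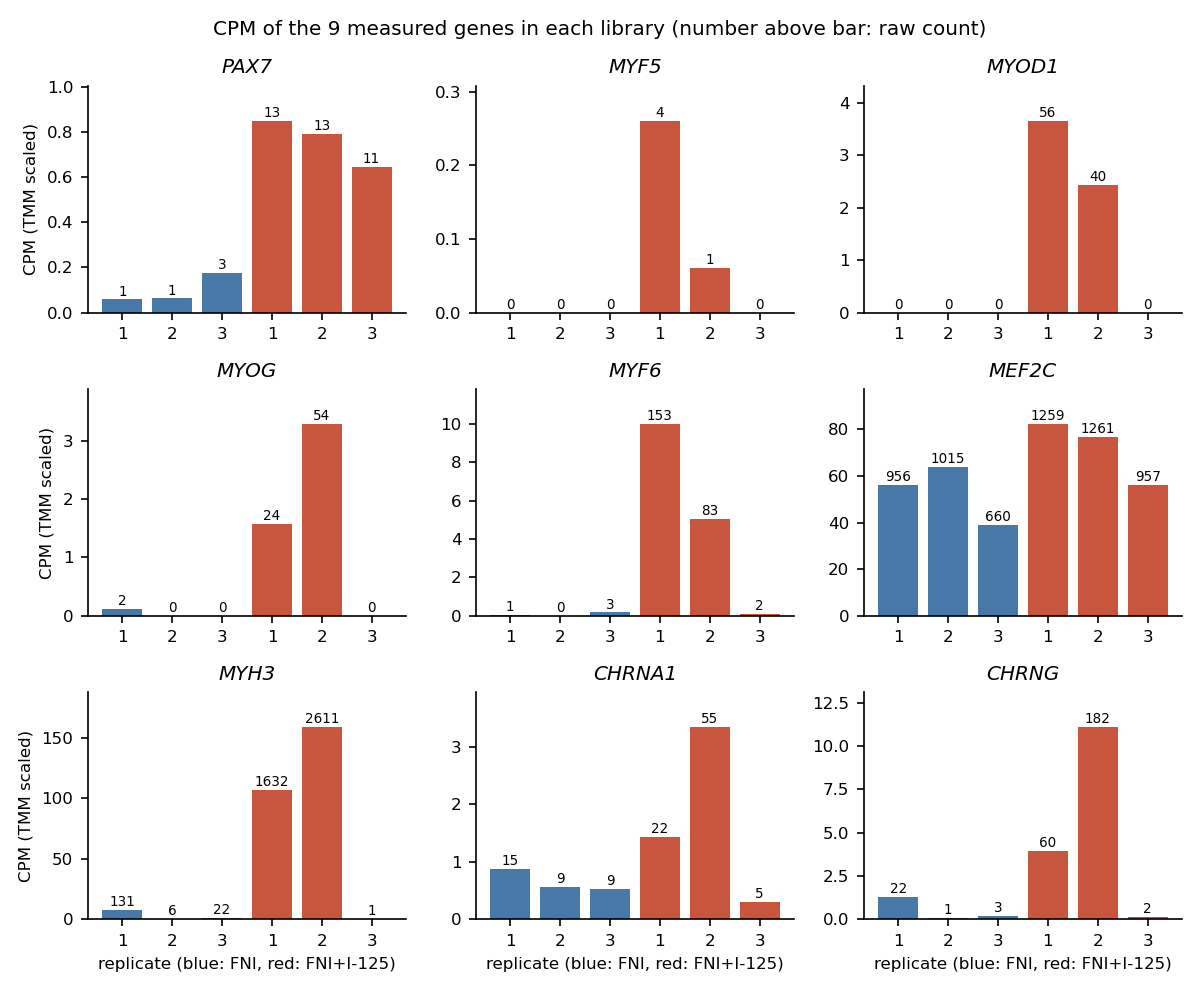
CPM of the 9 measured genes (y axis, one scale per panel, from 0) in each of the 6 libraries, with the raw count above each bar (blue, FNI; red, FNI+I-125). PAX7 was higher in all 3 FNI+I-125 libraries, MEF2C was counted everywhere, and the other genes were highest in FNI+I-125 replicates 1 and 2, while replicate 3 lay at or near the FNI level.

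Embryonic myosin was high in 2 libraries. MYH3 had 131, 6 and 22 counts (7.67, 0.378 and 1.3 CPM) in the FNI group and 1632, 2611 and 1 counts (107, 159 and 0.0587 CPM) with the seed. FNI+I-125 replicates 1 and 2 were the highest libraries, FNI+I-125 replicate 3 was the lowest, and the groups overlapped. The group means were 3.12 ± 3.97 and 88.6 ± 81 CPM (SD, n = 3). Its log2 fold change was 4.82 (SE 2.08) with all libraries and 5.39 (SE 1.19) without FNI+I-125 replicate 3. It was 6.70 without FNI replicate 1 and 4.07 without FNI+I-125 replicate 2. Myosin heavy chain genes are near-identical in parts of their sequence, so counts assigned to one of them are uncertain.

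Both receptor subunits reached their highest level in FNI+I-125 replicate 2. CHRNG had 22, 1 and 3 counts (1.29, 0.063 and 0.177 CPM) in the FNI group and 60, 182 and 2 counts (3.92, 11.1 and 0.117 CPM) with the seed. The fitted change of CHRNG was 3.28 on the log2 scale (SE 1.61), and 3.85 (SE 1.20) without FNI+I-125 replicate 3. Leaving out FNI replicate 1, which held 22 of the 26 FNI counts, moved it to 5.29, and leaving out FNI+I-125 replicate 2 moved it to 1.94. CHRNA1 had 15, 9 and 9 counts (0.878, 0.567 and 0.532 CPM) against 22, 55 and 5 counts (1.44, 3.35 and 0.294 CPM). Its log2 fold change was 1.35 (SE 0.85), 1.84 (SE 0.58) without FNI+I-125 replicate 3, and 0.36 without FNI+I-125 replicate 2. The groups overlapped for both genes, and FNI+I-125 replicate 3 was the lowest library for CHRNA1.

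Read against all genes, these differences did not pass the test at the adjusted p. The edgeR quasi-likelihood test with Benjamini-Hochberg adjustment (adjusted p under 0.05 and |log2 fold change| of 1.5 or more) called 0% of the 14003 genes tested higher and 0% lower, and 0 of the 5 genes of this set that passed the filter. With the p left unadjusted and the fold limit kept, 388 genes (2.77%) were higher and 306 (2.19%) lower, with PAX7 the 1 gene of the set among them. DESeq2 called 236 genes higher and 163 lower, and limma-voom 0 in each direction, none of them from this set. Without FNI+I-125 replicate 3, edgeR called 38 of 14276 genes (0.266%) higher and 2 (0.014%) lower, and 0 of the 8 genes of the set that it then tested. In 2076 genes (14.8%) the groups were higher without overlap and in 1729 (12.3%) lower, and PAX7 was the 1 gene of the set without overlap. Since the genes were chosen by this contrast, nothing is read from these counts. The genes that passed were PAX7, MEF2C, MYH3, CHRNA1 and CHRNG, and MYF5, MYOD1, MYOG and MYF6 did not pass because fewer than 3 libraries held enough counts.

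The levels of most genes of the set moved with the fibre RNA in a library. Over the 6 libraries, Pearson's r between log2(CPM + 1) of a gene and the mean of the 33 adult fibre genes was 0.99 for MYOD1, 0.98 for MYF6, 0.97 for MYH3, 0.96 for MYOG and 0.93 for CHRNG. It was 0.88 for CHRNA1, 0.82 for MYF5, 0.76 for MEF2C and 0.74 for PAX7. These are descriptions over 6 libraries that fall into 2 with fibre RNA and 4 with little, and that share their depth and scaling between the genes. In a bulk sample, more cells of a type and more RNA per cell cannot be told apart.

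Set against fibre RNA, the embryonic genes were not uniformly higher in the FNI+I-125 group. The measure was log2 CPM of a gene minus the mean log2(CPM + 1) of the adult fibre genes in the same library. Only the fibre term has 1 added. In the FNI libraries and FNI+I-125 replicate 3, that added 1 and the levels of TPM2 and TPM3 hold the fibre term up. The measure is therefore not a level per fibre there, and positions against the FNI range are not read as such. For MYH3 it was 0.55, -2.97 and -1.60 in the FNI group and -0.37, 0.45 and -5.50 in the FNI+I-125 group, so the 2 FNI+I-125 libraries with fibre RNA lay within the FNI range. For CHRNG it was -2.02, -5.56 and -4.47 against -5.14, -3.39 and -4.50, and all 3 FNI+I-125 libraries lay within the FNI range. For CHRNA1 it was -2.58, -2.39 and -2.89 against -6.59, -5.12 and -3.18, below every FNI library in all 3. These CHRNA1 values rested on 15, 9 and 9 counts in the FNI group and on 5 in FNI+I-125 replicate 3. For PAX7 it was -6.48, -5.56 and -4.47 against -7.35, -7.20 and -2.04, with the 2 libraries rich in fibre RNA lowest and FNI+I-125 replicate 3 highest. For MYF6 the FNI+I-125 libraries gave -3.79, -4.52 and -4.50, against -6.48 and -4.47 in FNI replicates 1 and 3, where it rested on 1 and 3 counts. MYOG stood at -6.46 in FNI+I-125 replicate 1 and -5.14 in replicate 2, against -5.48 in FNI replicate 1, and MYOD1 at -5.24 in FNI+I-125 replicate 1 and -5.58 in replicate 2, with both genes at 0 elsewhere. MEF2C had 3.42, 4.43 and 3.31 in the FNI group against -0.75, -0.60 and 4.40, lowest in the libraries rich in fibre RNA. With ACTA1, CKM and TTN as the reference instead, MYH3 again lay within the FNI range in FNI+I-125 replicates 1 and 2, at -2.87 and -2.22. On that reference CHRNG stood at -7.64 in FNI+I-125 replicate 1, below the lowest FNI value of -6.56, and at -6.06 in replicate 2, and CHRNA1 in replicate 3, at -3.61, lay within the FNI range.

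Within a library, MYH3 was compared with the adult fast myosins MYH1 and MYH4. MYH3 made up 72% (131 of 182 counts, exact binomial 95% interval 64.9% to 78.4%), 33.3% (6 of 18, 13.3% to 59%) and 68.8% (22 of 32, 50% to 83.9%) of these counts in FNI replicates 1, 2 and 3. In the FNI+I-125 group it made up 18.7% (1632 of 8729, 17.9% to 19.5%), 57.4% (2611 of 4552, 55.9% to 58.8%) and 25% (1 of 4, 0.631% to 80.6%). The mean share was 24.3 percentage points lower in the FNI+I-125 group, 33.7% against 58%, with a pooled SD of 21.1 points, and the groups overlapped. The means weigh each library alike, including those with totals of 4 and 18 counts. The adult myosins MYH2 and MYH7 were not analysed here and are missing from the total. These are shares of counts and not of molecules, since no gene length entered them. With MYH6, MYH7B and MYH13 added to the denominator, the shares were 54.1%, 5.88% and 16.8% against 14.6%, 40.4% and 3.23%, a mean difference of -6.21 points.

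The share of CHRNG among the CHRNG and CHRNE counts was higher in 2 of 3 FNI+I-125 libraries. CHRNG made up 2.46%, 0.114% and 0.514% of the CHRNG and CHRNE counts in the FNI group, against 7.99% (95% interval 6.15% to 10.2%), 11.5% (9.94% to 13.1%) and 0.275% in the FNI+I-125 group. The group means were 1.03% and 6.58%, a difference of 5.55 points against a pooled SD of 4.14 points. The adult subunit was counted in libraries with and without fibre RNA. Pearson's r with the mean of the adult fibre genes was 0.52 for CHRNE, against 0.93 for CHRNG. The share can thus rise with the amount of fibre RNA, and it is not read as fetal against adult receptor within fibres. CHRNE had 872, 876 and 581 counts in the FNI group and 691, 1406 and 726 counts in the FNI+I-125 group, with 726 in the library that held 35 counts of ACTA1. CHRNE lies next to MINK1 in the rabbit annotation, and the strand setting of the counting is not given in the sources used here, so reads of neighbouring or overlapping genes may be among its counts. The same holds for CHRNG, which lies inside the span annotated for ECEL1, although ECEL1 had between 0 and 3 counts in a library.

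**Figure D3:**
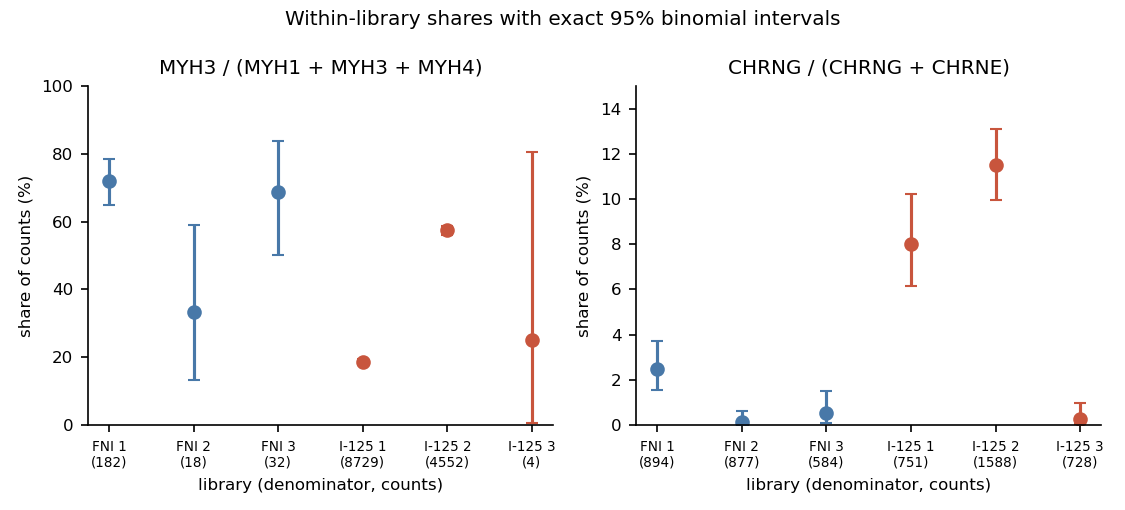
Share of counts in percent (y axis) in each library, with exact 95% binomial intervals: MYH3 of MYH1, MYH3 and MYH4 (left) and CHRNG of CHRNG and CHRNE (right). The number under each library is the total of counts behind the share. CHRNG reached 7.99% and 11.5% in FNI+I-125 replicates 1 and 2 and stayed at or below 2.46% elsewhere, while the MYH3 shares of the groups overlapped.

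The other subunits and partners of the receptor gave a mixed picture. CHRND, the delta subunit, had 1, 3 and 0 counts in the FNI group and 69, 131 and 7 counts in the FNI+I-125 group, and was higher without overlap. CHRNB1, the beta subunit, had 35, 54 and 26 counts against 66, 145 and 45. MUSK, the kinase that clusters receptors at the endplate, had 7, 5 and 23 counts against 14, 18 and 0, and its groups overlapped. NCAM1, an adhesion molecule of denervated fibres and of Schwann cells, had 2315, 1731 and 2140 counts against 1072, 2270 and 1715. Of the 12 neuromuscular junction genes measured, 11 were tested, 0 were called in either direction, and their median log2 fold change was 0.04, against 0.01 over all genes tested. The 3 with the highest level were UTRN (log2 fold change -1.21, SE 0.42), ERBB3 (-0.84, SE 0.52) and CHRNE (0.30, SE 0.33), of which UTRN and ERBB3 are also used by Schwann cells.

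Genes known to respond to denervation were described in the same way. Of 17 measured, 16 were tested, 0 were called, and 2 were higher and 2 lower without overlap (14.8% and 12.3% of all genes tested), with a median log2 fold change of 0.26. CHRND, which belongs to this list too, did not pass the filter and was also higher without overlap. ANKRD1, a stress-responsive protein of the sarcomere, had 49, 9 and 20 counts in the FNI group and 1475, 2658 and 97 counts in the FNI+I-125 group. SLN, the sarcolipin that inhibits the calcium pump of the sarcoplasmic reticulum, had 14, 2 and 10 counts against 838, 949 and 0. SLN was the 1 gene of this list called higher without FNI+I-125 replicate 3 (log2 fold change 6.74, SE 0.61, edgeR adjusted p = 0.0378). That library was set apart for its low fibre RNA, so nothing is read from this call. TRIM63, a ubiquitin ligase of muscle atrophy, had 10, 22 and 8 counts against 55, 137 and 6. RUNX1, which is induced in denervated muscle and is also a factor of blood cells, had 485, 424 and 137 counts against 1259, 445 and 943. DACH2, a corepressor upstream of MYOG, was lower without overlap, with 68, 76 and 74 counts against 20, 39 and 19. FBXO32 (log2 fold change 0.56, SE 0.33) and GADD45A (0.27, SE 0.20), the next most abundant after NCAM1, overlapped between the groups.

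Other developmental muscle genes differed among themselves. Of the 9 measured, 8 were tested and 0 called, with a median log2 fold change of 0.71, and 1.35 without FNI+I-125 replicate 3. ACTC1, the cardiac alpha-actin that early skeletal muscle also makes, had 180, 21 and 70 counts in the FNI group and 1948, 4106 and 53 in the FNI+I-125 group (log2 fold change 4.57, SE 1.55). MYL4, the embryonic myosin light chain, had 53, 6 and 30 counts against 686, 724 and 11 (log2 fold change 4.08, SE 1.49). MYH8, the perinatal myosin, was not analysed here. NES, an intermediate filament protein of immature muscle and of glia, was the most abundant gene of the list and had a log2 fold change of 0.11 (SE 0.41). DLK1, a regulator of immature cells, was lower without overlap, with 21, 15 and 685 counts in the FNI group and 14, 7 and 10 counts with the seed.

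Genes of differentiation and fusion held 13 tested of 14 measured, with 0 called and a median log2 fold change of 0.17. MYMX, the micropeptide that lets myoblasts fuse, had 7 counts in FNI+I-125 replicate 1, 12 in replicate 2 and 0 in the other 4 libraries. Its partner MYMK was not analysed here. STAC3, part of the excitation-contraction machinery, had 26, 23 and 27 counts in the FNI group and 304, 390 and 36 counts in the FNI+I-125 group. KLHL41, a sarcomere assembly protein, had 22, 13 and 23 counts against 867, 795 and 20. Both were called higher once FNI+I-125 replicate 3 was left out, with log2 fold changes of 3.83 (SE 0.23, edgeR adjusted p = 0.0165) and 5.48 (SE 0.28, adjusted p = 0.0118). Nothing is read from these calls either, since that library was set apart for its low fibre RNA. The most abundant genes of the list, JAM3 (log2 fold change -1.65, SE 0.61), BOC (-0.05, SE 0.39) and JAM2 (-0.92, SE 0.43), encode adhesion and signalling proteins that nerve and vessels also make.

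The other satellite cell genes moved in both directions. Of the 16 measured, 14 were tested, 0 were called, and 4 had a positive and 10 a negative log2 fold change. Without overlap, 2 were higher and 4 lower (14.8% and 12.3% of all genes tested were). The median log2 fold change was -0.29, or -0.57 without FNI+I-125 replicate 3. CALCR, the calcitonin receptor of resting satellite cells, had 3 counts in FNI+I-125 replicate 2 and 0 in every other library. The 3 most abundant genes, DAG1 (-0.38, SE 0.49), NOTCH3 (-0.31, SE 0.16) and ITGA7 (-1.37, SE 0.43 on the log2 scale), encode a laminin receptor, a vascular Notch receptor and an integrin, and are also used by Schwann cells or vessels. CXCR4, which leukocytes express as well, had 172, 230 and 60 counts in the FNI group and 485, 381 and 455 in the FNI+I-125 group, and it and SDC4 were the genes higher without overlap. For the Schwann cell list, 12 of 12 genes tested had a negative log2 fold change and the median was -1.81, and its part in the values of these shared genes was not tested.

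Of the muscle lists, the adult fibre genes had the highest median log2 fold change. All 29 genes tested of 33 measured had a positive log2 fold change, with a median of 5.32. At an unadjusted p under 0.05 and |log2 fold change| of 1.5 or more, 27 were higher (2.77% of all genes tested), and 0 at the adjusted p. Of the 29, only 1, TPM3, was higher without overlap (14.8% of all genes tested were). In the others FNI+I-125 replicate 3 did not lie above the FNI libraries. The most abundant were ACTA1 (log2 fold change 6.25, SE 2.29), TPM2 (1.36, SE 0.51) and TTN (6.27, SE 1.90). Without FNI+I-125 replicate 3, 14 of 32 were called higher (0.266% of all genes tested were). That library was set apart for its low level of these same genes, so nothing is read from these calls. The median without it was 5.94, against 4.62 for the 8 genes of the set tested then, with MYOD1 taken against 3 counts over the FNI group. With all libraries the median of the 5 genes that passed the filter was 2.84. These medians describe genes that were chosen with the contrast known.

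**Figure D4:**
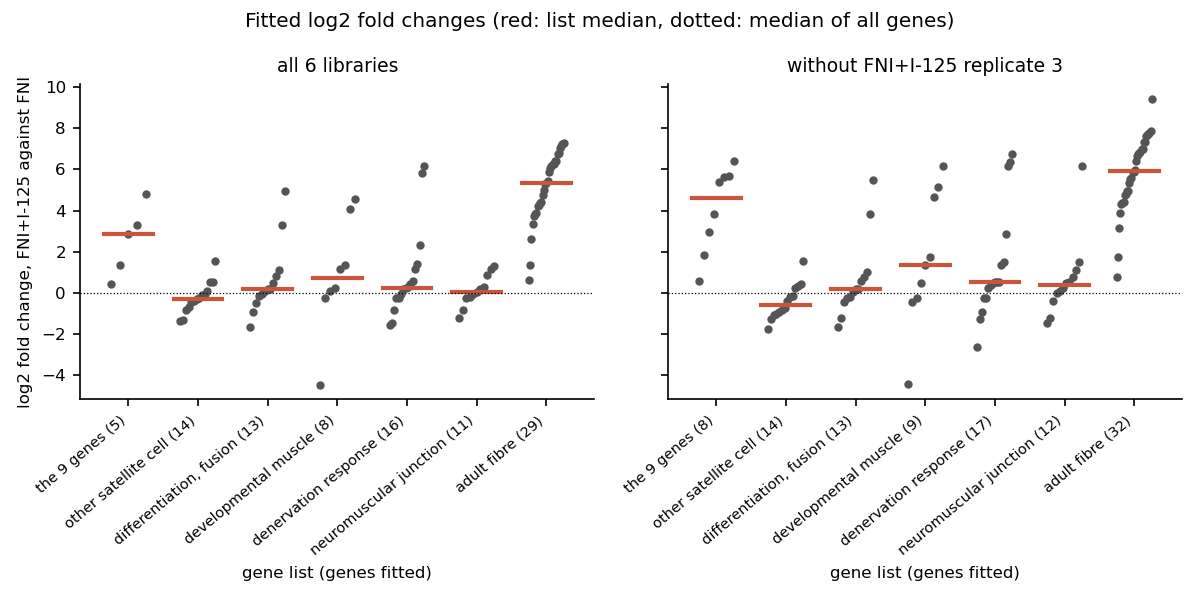
Fitted log2 fold changes, FNI+I-125 against FNI (y axis), of single genes (points) by list, with all 6 libraries (left) and without FNI+I-125 replicate 3 (right). Red bars mark list medians and the dotted line the median of all genes. Adult fibre genes lay highest, with medians of 5.32 and 5.94, and the other satellite cell genes had medians of -0.29 and -0.57, with CXCR4 highest at 1.54 in both panels.

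The 2 FNI+I-125 libraries with fibre RNA differed from each other in the muscle genes they held. This compares 2 libraries, not conditions, with intervals for counting error. Replicate 2 held more CHRNG than replicate 1 (CPM ratio 2.82, 95% interval 2.1 to 3.85), more CHRNA1 (2.33, 1.4 to 4.01), more MYOG (2.1, 1.27 to 3.54) and more MYH3 (1.49, 1.4 to 1.59). It held less MYF6 (0.505, 0.382 to 0.664). For PAX7 (0.931, 0.398 to 2.18), MYF5 (0.233, 0.00473 to 2.35), MYOD1 (0.665, 0.432 to 1.02) and MEF2C (0.933, 0.862 to 1.01) the interval included 1. Beyond the set, CHRND (1.77), CHRNB1 (2.05), ACTC1 (1.96), TNNT2 (2.02) and TRIM63 (2.32) were also higher in replicate 2, with intervals above 1. Of the 17 denervation genes, 9 had an interval above 1 and 5 had one that included 1. The 3 below 1 were RUNX1 (0.329), GADD45A (0.618) and FBXO30 (0.827). Of the 9 developmental muscle genes, 5 lay above 1, 1 lay below it and 3 included it. The adult subunit CHRNE (1.89), and NCAM1 (1.97) and ERBB3 (2.49), which Schwann cells also use, were higher in replicate 2 too. Several adult fibre genes were lower in it, with 9 of the 33 having an interval above 1 and 17 below it. MYH1 had a ratio of 0.25 (0.238 to 0.263), MYH4 of 0.4 (0.31 to 0.513), and PVALB, the calcium buffer of fast fibres, had 101 counts in replicate 1 and 5 in replicate 2. Other fibre genes lay on both sides of 1, with MYL2 at 0.645, PYGM at 1.23, ACTA1 at 0.984, CKM at 1.19 and TTN at 0.721, and the median ratio over 33 adult fibre genes was 0.95.

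**Figure D5:**
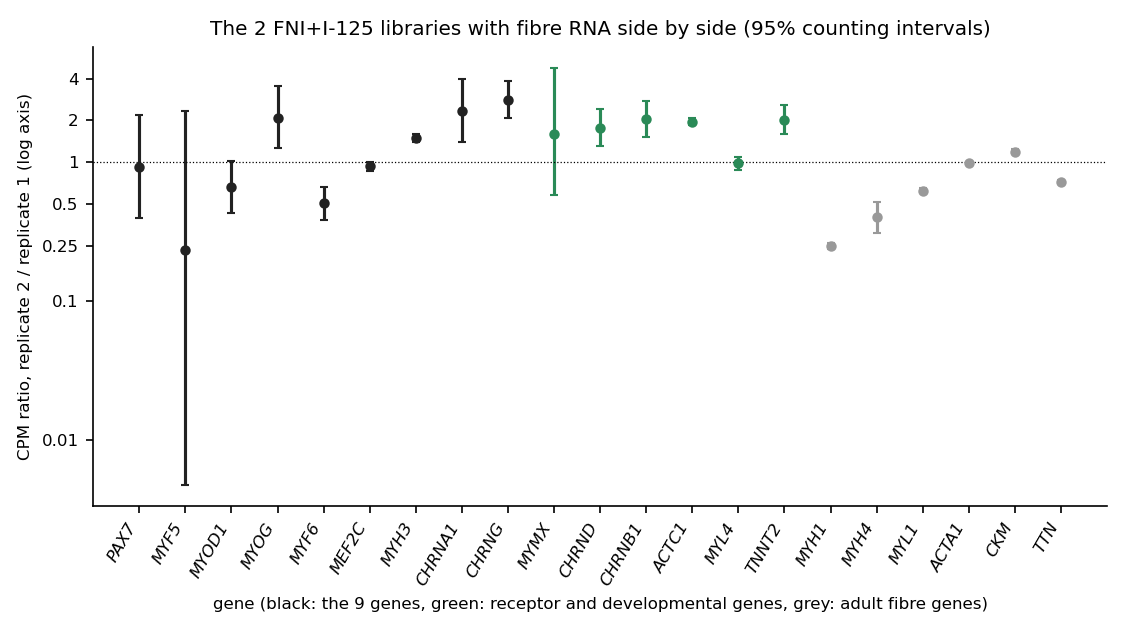
Ratio of CPM in FNI+I-125 replicate 2 to that in replicate 1 (y axis, log scale) with 95% counting intervals for the 9 genes (black), receptor and developmental genes (green) and adult fibre genes (grey). MYOG, MYH3, CHRNA1 and CHRNG lay above 1, and MYF6, MYH1, MYH4 and MYL1 below it.

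Genes whose levels ran most like those of the set were ranked by Pearson's r of log2(CPM + 1) over the 6 libraries, as a description. For MYH3 these were LOC100303760 (0.9944), DES (0.9935), ALPK3 (0.9927), TFE3 (0.9923) and CA3 (0.9918), of which DES is desmin, the muscle intermediate filament, and CA3 the carbonic anhydrase of slow fibres. For MYOG they were LOC108175591 (0.9947), AP3S1 (0.9900), PTP4A3 (0.9879), SYNC (0.9872) and PPP2R5E (0.9869). For CHRNG they were PPP2R5E (0.9888), KLHL30 (0.9885), DUSP14 (0.9878), RECQL (0.9856) and ALPK3 (0.9855). PAX7 ran with another group, LOC100348124 (0.9912), BNIP3 (0.9893), WAPL (0.9846), PSMD1 (0.9837) and FOCAD (0.9831) (BNIP3 is a mitochondrial protein and PSMD1 a proteasome subunit). MEF2C was closest to GMFG (0.9938), MS4A6A (0.9933), SLC8A3 (0.9904), HTR1B (0.9888) and CARD6 (0.9885), and GMFG and MS4A6A are genes of blood cells and macrophages. With 6 libraries and 14003 genes to choose from, the highest correlations are high by selection, and no shared function is read from them.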

How the data were processed

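Raw counts of reads per gene, deposited by the authors as 1 file per library without normalization, were used. The libraries came from a stranded mRNA kit, and the submitters' processing notes name HISAT2 and OryCun2.0. The counting program is not given in the sources used here. Of 2992 LOC identifiers, 542 received a symbol from the RefSeq table of mOryCun1.1, which served for names and neighbours only. For 25 genes a spreadsheet date stands in place of the name (0.188% of counts), and these were kept, unnamed.

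The tools were R 4.3.3, edgeR 4.0.16 (TMM, filterByExpr with a minimum count of 10, glmQLFit and glmQLFTest, two-sided), limma 3.58.1 and DESeq2 1.42.0. The filter kept 14003 genes, and the median prior degrees of freedom were 2.01. Each SE of a log2 fold change is its absolute value divided by the square root of the F statistic of the quasi-likelihood test. It is not a standard error estimated by the fit itself. At the depth of these libraries a gene at 0 may hold up to 3 counts. The scripts were tested on simulated data.

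The genes and all lists were chosen with earlier results of these data known. Named genes were the 10 of the set, the 5 most correlated with each of MYOG, MYH3, PAX7, CHRNG and MEF2C, the 3 most abundant of each list, and MYH8, MYL4, CHRND, CHRNE, CHRNB1, NCAM1, MUSK, MYMK and MYMX. Genes that this rule gives but the text leaves out are not reported here. All others were chosen after their values were seen. MYH2, MYH7 and MYH8 were not analysed here, so the planned myosin share used MYH1, MYH3 and MYH4. A planned promoter motif search was not run, since no sequence was used. Alternatives were other scalings, tests and filters, a block for the replicate number, and each library left out in turn.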

Additional observations from a re-analysis of the deposited data

How the results depend on the processing

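At the adjusted p, edgeR called 0 genes higher and 0 lower with library-size scaling, upper-quartile scaling, library sizes without fibre genes, limma-voom in place of edgeR, and all filters on low counts. DESeq2 called 236 higher and 163 lower. Leaving out 1 library gave 0 to 38 genes higher and 0 to 2 lower, all of them without FNI+I-125 replicate 3. At an unadjusted p under 0.05 and |log2 fold change| of 1.5 or more, 245 genes were higher with at least 10 counts in every library, and 178 were lower with limma-voom. Leaving out 1 library gave 239 to 514 higher, the fewest without FNI replicate 3, and 122 to 416 lower, with 122 without FNI+I-125 replicate 1 and 160 without FNI replicate 3. Counts without overlap ran from 2542 to 2943 higher and from 2243 to 2743 lower with 1 library left out, where fewer libraries make overlap rarer.

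Of the genes of the set that each alternative tested, 9 without a filter, 1 with at least 10 counts in every library and 5 or 8 in the others, 0 were called. At the same unadjusted limits, 1 of 388 genes higher was of the set in the main comparison, 3 of 501 with DESeq2, 4 of 521 without a filter, 4 of 469 with at least 10 counts in any 2 libraries, 0 of 245 with at least 10 counts in every library, and 1 to 7 with 1 library left out. The 7, of 8 tested, came without FNI+I-125 replicate 3, where 514 genes were higher in all. Without overlap, 1 of 5 was higher in the main comparison, where 2076 of 14003 genes were. With at least 10 counts in every library it was 0 of 1, where 1908 genes were. With 1 library left out it was 1 to 5 of the same 5. The 5 came without FNI+I-125 replicate 3, where 2943 of 14003 genes were higher. Since that library was set apart for its low fibre RNA and the genes were chosen by this contrast, nothing is read from these counts. The alternatives for the counts of genes of the set at either p limit, those for their overlap with 1 library left out, and the wider myosin denominator were chosen after seeing the data.

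Over 80 alternative values of the log2 fold changes of the set, 0 changed sign. They ran from 2.58 to 3.48 for PAX7, 2.65 to 6.70 for MYH3, 1.94 to 5.29 for CHRNG, 0.36 to 1.84 for CHRNA1, 0.24 to 0.59 for MEF2C, 5.33 to 7.05 for MYF6 and 4.58 to 5.68 for MYOG. The difference in the MYH3 share ran from -36.7 to -16.8 points and that in the CHRNG share from 3.1 to 8.7 points with 1 library left out.

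No pairing by replicate number was seen: deviations from the group means correlated at 0.0519, -0.191 and -0.137 between libraries of the same number. Between libraries of different numbers they ran from -0.293 to 0.305. Such correlations cannot show whether libraries were handled in pairs. With the replicate number as a block, 0 genes were called in either direction, and 375 were higher and 217 lower at an unadjusted p under 0.05. The share of MYH3 among MYH3, MYH8 and MYH2 was not run, since MYH8 and MYH2 were not analysed here. Depth limits PAX7, MYF5, MYOD1, MYOG and MYF6, which rested on 0 to 3 counts in each FNI library.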

Other observations

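Cycling genes were measured as a list beside the satellite cell genes. Of 10 proliferation genes tested, 9 had a positive log2 fold change, 8 had every FNI+I-125 library above every FNI library (14.8% of all genes tested did), 3 were higher at an unadjusted p under 0.05 and |log2 fold change| of 1.5 or more (2.77% of all genes tested were), and 0 were called at the adjusted p by edgeR, with a median log2 fold change of 1.05. MKI67, a nuclear protein of dividing cells, had 444, 476 and 217 counts in the FNI group and 1319, 626 and 1009 in the FNI+I-125 group. PCNA, the DNA polymerase clamp, had 761, 706 and 810 counts against 1041, 934 and 926, and MCM2, a replication helicase subunit, had 547, 528 and 241 against 874, 473 and 716. FNI+I-125 replicate 3, which held little fibre RNA, was among the higher libraries for MKI67. Which cells held these transcripts was not tested.

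Among the myosins outside the set, MYH6, the alpha myosin heavy chain that jaw muscles of some mammals also make, had 16, 21 and 12 counts in the FNI group and 2329, 1789 and 7 counts in the FNI+I-125 group. MYH13, the extraocular myosin, had 19, 8 and 12 counts against 9, 26 and 5.

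The remaining marker lists had 0 genes called. Median log2 fold changes were 1.21 for 9 macrophage genes (9 positive, led in level by CSF1R, CD68 and C1QC), 0.93 for 7 B cell genes, -0.41 for 10 endothelial genes (VWF, PECAM1 and CDH5), -0.15 for 7 smooth muscle genes (ACTA2, MYH11 and TAGLN), 0.43 for 6 fibroblast and tendon genes (COL1A1, DCN and LUM) and -4.98 for 5 salivary gland genes (DNASE1, PIP and AQP5).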
